A study of Mus musculus with 8 samples.

Results

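Antisense long noncoding RNAs (lncRNAs) are transcripts without a long open reading frame that lie on the strand opposite another gene, and 45 of them were expressed well enough to be described in the embryonic striatal primordium. They were chosen by their gene type and their level: rows annotated as antisense whose control and mutant means averaged at least 5, with Dlx1as, Dlx6os1, Six3os1, Kcnq1ot1, Tsix and the Snhg genes left out. These 45 were taken from 596 antisense rows in a table of 16913 genes. The level was the measured value behind the choice, so the level itself is given only as a description.

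RNA came from the lateral ganglionic eminence (LGE), the embryonic zone that makes striatal projection neurons, at embryonic day 14.5, from mice of mixed C57BL/6J and CD1 background. The 4 control samples carried Dlx5/6-Cre and 1 floxed Meis2 allele (Dlx5/6-Cre;Meis2F/+, littermates). The 4 Meis2-CKO samples carried Dlx5/6-Cre and 2 floxed alleles (Dlx5/6-Cre;Meis2F/F). Both groups therefore carry Cre, the control is not a wild type, and Meis2 can be lost only in cells where the Dlx5/6 driver is active. Meis2, the targeted gene, codes for a TALE-type homeodomain factor. Whether a sample is 1 embryo is not stated.

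Antisense transcripts arise in several ways. Many start head to head with a protein-coding gene, where a CpG-rich promoter fires in both directions; others start inside a gene or beyond its end and run back through its exons. Such RNAs are often nuclear and short-lived, trimmed by the nuclear exosome, and some act on the gene they overlap through the act of transcription, by pairing with its RNA or by recruiting chromatin complexes. In the forebrain the best-known examples lie beside homeobox genes.

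All levels, log2 fold changes and p-values given here are the authors', from the authors' deposited table: a mean expression signal for each genotype, and a log2 fold change that is positive where Meis2-CKO is higher. Where 2 means are given together, the control comes first. No spread between samples goes with these means, because the columns of single libraries could not be tied to samples by name. The header names no unit; median control values of protein-coding genes went from 9.18 in the shortest of 5 bins by exon length to 14.2 in the longest, so the values behave roughly as levels per length. Meis2 itself fell from a control mean of 204 to a mutant mean of 140 (adjusted p = 0.00195, authors' deposited table). All 12 LGE markers were listed and 5 of them were called. The 25 markers of pallium, medial eminence, blood, endothelium, microglia and meninges held 0 calls by the authors' test and 1 gene at an unadjusted p under 0.05. Over all genes these shares were 0.780% and 2.17%. Summed means of the control and the mutant were 138 and 160 for the 5 pallial genes and 3.29 and 1.45 for the 4 meningeal ones. The labels give no sex, and 3 Y-linked genes were called lower in the authors' deposited table (Eif2s3y from 50.5 to 14.0), while Xist had means of 78.0 and 256 without a call (adjusted p = 0.985). None of the 43 antisense lncRNAs that could be placed lies on X or Y. A difference in sex between the groups cannot be told apart from genotype here, also for genes outside X and Y.

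The places where these RNAs begin are shown first. By GENCODE M21 starts, 13 of the 45 begin within 1000 bases of a protein-coding gene that runs the other way without overlapping it. The letters below are all the bases between the start of the neighbouring gene and the start of the antisense lncRNA for 4 such pairs, cut from RefSeq promoter windows on GRCm38 and written on the strand of the lncRNA. Capitals mark CpG dinucleotides, which are frequent in promoters that fire both ways.

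Tmem147 to Tmem147os (chr7:30729541-30729578, plus strand): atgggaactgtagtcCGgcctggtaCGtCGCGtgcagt

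Daxx to BC051226 (chr17:33909318-33909413, minus strand): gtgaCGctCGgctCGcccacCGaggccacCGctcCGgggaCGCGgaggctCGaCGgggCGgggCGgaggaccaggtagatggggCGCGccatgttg

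Arid4a to 3110056K07Rik (chr12:71015833-71015989, minus strand): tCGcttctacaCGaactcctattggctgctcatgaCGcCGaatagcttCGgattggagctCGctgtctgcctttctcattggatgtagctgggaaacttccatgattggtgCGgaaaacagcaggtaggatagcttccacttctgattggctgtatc

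Brip1 to Brip1os (chr11:86201194-86201369, plus strand): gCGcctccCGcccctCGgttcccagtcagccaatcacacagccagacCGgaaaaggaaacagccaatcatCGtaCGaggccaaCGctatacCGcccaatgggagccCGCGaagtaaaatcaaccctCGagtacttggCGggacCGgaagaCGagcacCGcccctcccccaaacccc

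These stretches hold 4, 14, 7 and 15 CpG dinucleotides. The letters CCAAT, read on either strand and counted after the sequences had been seen, occur 5 times between Arid4a and 3110056K07Rik and 3 times between Brip1 and Brip1os. They are absent from the stretches of Tmem147os and BC051226. Shorter stretches, from BC037034 to 6330418K02Rik (9 bases, 0 CpG) and from Cox10 to 2810001G20Rik (15 bases, 1 CpG), are not printed, so the 4 shown are not a typical set. The 4 RNAs with a RefSeq window but no protein-coding start within 1000 bases of their GENCODE M21 start differ widely. The 250 bases before their RefSeq starts hold 32 (Rab10os), 15 (A830082K12Rik), 5 (D030055H07Rik) and 2 (9130221H12Rik) CpG dinucleotides. The stretch of D030055H07Rik is printed because it is the one of these with no annotated exon in it, not as typical of them.

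D030055H07Rik (chr9:106147721-106147970, plus strand): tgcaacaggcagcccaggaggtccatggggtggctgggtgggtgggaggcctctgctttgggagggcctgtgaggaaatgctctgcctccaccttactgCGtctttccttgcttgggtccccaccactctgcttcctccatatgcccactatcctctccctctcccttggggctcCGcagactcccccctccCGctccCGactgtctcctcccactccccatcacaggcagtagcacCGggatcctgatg

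None of the 45 antisense lncRNAs passed the authors' test. Dlx1as, which the rule leaves out, did, with the higher mean in the mutant. So did Six3os1, also left out and typed here as a processed transcript (25.1 and 12.8, adjusted p = 0.0102, authors' deposited table). At an adjusted p under 0.05 the count was 0 of 45, beside 0.780% of all 16913 genes and 0.705% of the 9929 genes with an average of at least 5; a count of 0 in so short a list is near that background. No source used here names the tool behind those p-values. At an unadjusted p under 0.05 there were 2 of 45 (4.44%), Gm43126 and Gm28498, beside 2.32% of genes over the same floor. Gm28498 met that floor only through its control mean. The deposited log2 fold change was above 0 for 24 of the 45 and below 0 for 21. Their median log2 fold change was 0.03, beside 0.02 for all genes over the floor. In dissected tissue, fewer cells of a type and less RNA per cell cannot be told apart.

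**Figure D1:**
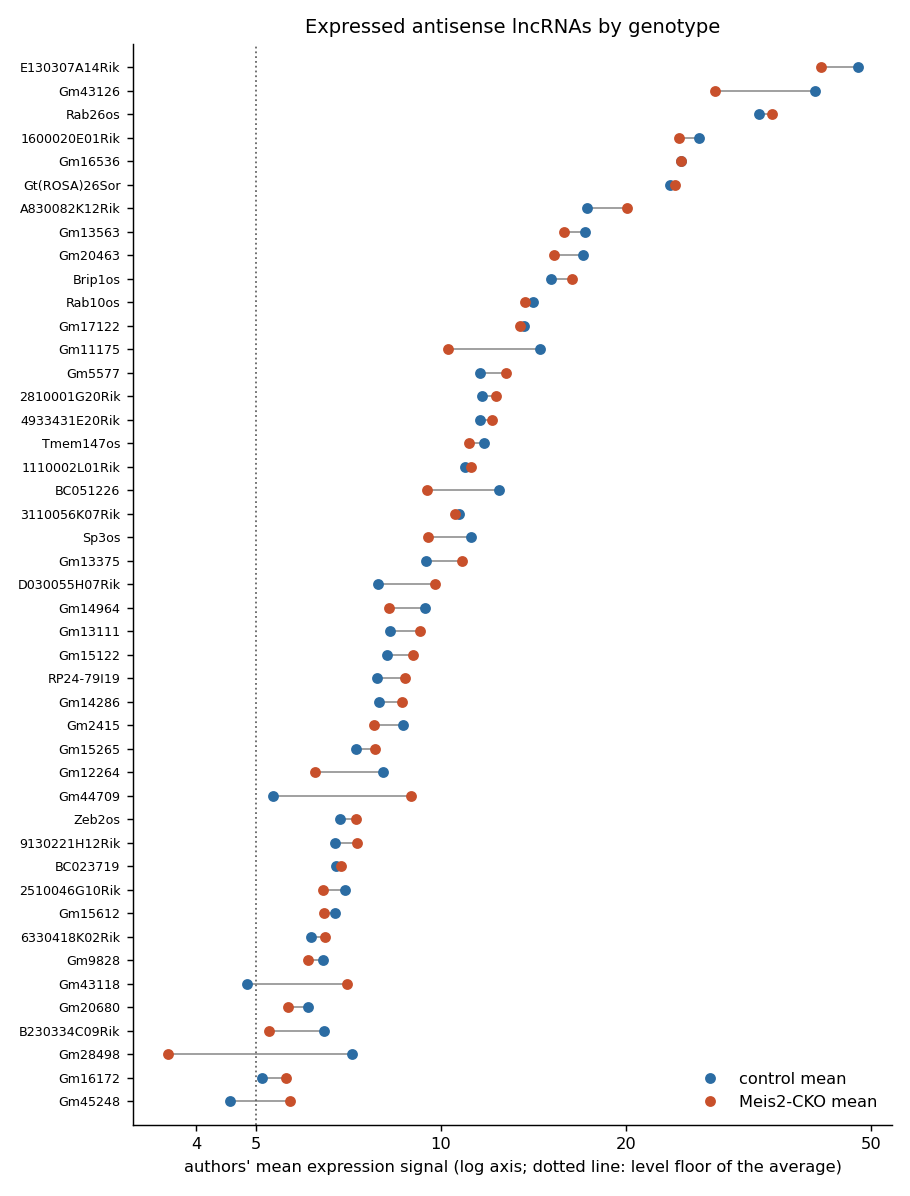
Authors' mean expression signal (log axis) of the 45 antisense lncRNAs in control (blue) and Meis2-CKO (orange), joined by a line and ordered by their average; no error can be drawn because the deposited means carry none. Most pairs of points lie close together, and Gm28498, Gm44709, Gm43118, Gm43126 and Gm11175 have the widest gaps.

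How large a change would have been called depends on the level. Among the 2101 genes averaging 5 to 10, where 23 of the antisense lncRNAs lie, 22 were called, and the smallest called log2 fold change was that of Wnt5a, 1.33 in size. None of the 23 reached it; the largest was 0.96 in size. Among genes averaging 10 to 20 the smallest called change was 0.89 in size, and the largest of the 16 antisense lncRNAs there 0.48. From 20 to 50 those values were 0.71 and 0.53. Missing the threshold at these levels is no evidence of an unchanged RNA.

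**Figure D2:**
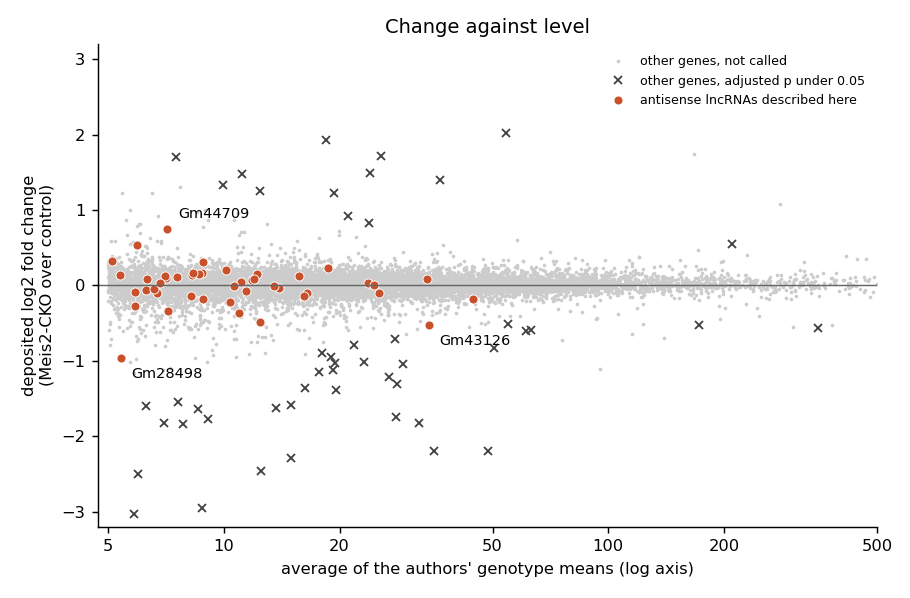
Deposited log2 fold change against the average of the authors' genotype means (log axis) for 9764 genes with an average of at least 5; 165 genes beyond the axes are not drawn. The antisense lncRNAs (orange) lie among the genes that were not called (grey), and none reaches the smallest called change (crosses) of its range of levels.

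Small differences were the rule. A log2 fold change within 0.2 of 0 was seen for 32 of the 45 (71.1%), against 86.3% of 7135 protein-coding genes whose averages lie within the range of these RNAs, although their median average was higher (16.1 against 8.83); among expressed lincRNAs, which lie between genes, it was 74.4% of 90, and among processed transcripts 70.6% of 68; no test was made between these types. Exon lengths ran from 366 to 8927 nt, with a median of 1577. Of the 16 antisense lncRNAs with under 1000 nt of exon, 3 differed by at least 0.5 on the log2 scale, and of the 27 with 1000 nt or more none did, a split chosen after the values were seen. Across the 43 the rank correlation of exon length with the size of the change was -0.18, and the part of length was not tested.

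The most abundant was E130307A14Rik (chromosome 10, 39621412 to 39732007, minus strand). It starts 111 bases from Rev3l, which encodes the catalytic subunit of the translesion polymerase zeta, and runs across the end and most of Traf3ip2. Its deposited means were 47.6 (control) and 41.4 (mutant), with a log2 fold change of -0.19. Rev3l stood at 31.2 and 28.0 (-0.15), so both genes of this pair had the lower mean in the mutant and neither passed.

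Next in level was Gm43126 (chromosome 6, 127122966 to 127126155, plus strand), the antisense lncRNA with the smallest p. Its first exon ends 2140 bases beyond the 3′ end of Ccnd2, the gene of cyclin D2, a driver of progenitor division, and its second lies within that gene. Its deposited means were 40.5 (control) and 27.8 (mutant), 1.44-fold lower by the deposited log2 fold change (unadjusted p = 0.00319, adjusted p = 0.320, authors' deposited table). Ccnd2 stood the other way, at 295 and 337 (log2 fold change 0.20, unadjusted p = 0.240). All 372 bases of exon 2 of Gm43126 lie opposite the 3′ untranslated region of Ccnd2, so that, with the strand of the counting not stated, reads there cannot be assigned to one of the pair; exon 1, with 57 bases, is the part outside Ccnd2. It is shown because reads there cannot come from Ccnd2 exons; capitals would mark CpG, and it holds none.

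Gm43126 exon 1 (chr6:127122966-127123022, plus strand): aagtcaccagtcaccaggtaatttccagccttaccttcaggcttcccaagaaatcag

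Gm28498 had the largest difference of all 45, and its mutant mean lies under the level floor of 5. Its means in the authors' deposited table were 7.18 (control) and 3.60 (mutant), 1.95-fold lower by the deposited log2 fold change (unadjusted p = 0.0297), which did not pass after adjustment. Together with Gm20680 (6.08 and 5.65) it has no entry in GENCODE M21, and no position is given for either.

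Of the antisense lncRNAs with a known place, the largest higher mean was that of Gm44709 (chromosome 7, 28314898 to 28318873, plus strand). Its means were 5.33 (control) and 8.93 (mutant), 1.68-fold higher by the deposited log2 fold change (unadjusted p = 0.0509 in the authors' deposited table). It lies opposite the last part of Supt5, a transcription elongation factor gene, which stood at 51.9 and 53.1. Gm43118 (chromosome 5, 111387515 to 111388289, minus strand) stood at 4.84 and 7.04, and lies wholly opposite exon sequence of Pitpnb, a phosphatidylinositol transfer protein gene, at 44.2 and 44.7. Gm11175 (chromosome 8, 70699162 to 70700080, minus strand), which lies within the coding exon of the AP-1 gene Jund, stood at 14.5 and 10.3, while Jund stood at 90.1 in both. These 3 are among the 5 antisense lncRNAs with at least 90% of their exon opposite exons of the partner; the other two were Gm20463, opposite Rnf5 (17.0 and 15.3), and Gm17122, opposite Coro1c (13.7 and 13.4). Their partners differed by at most 0.10 on the log2 scale.

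A few of these RNAs lie beside genes of transcription factors. A830082K12Rik (chromosome 13, 78198017 to 78279391, plus strand) starts inside Nr2f1, the gene of the orphan nuclear receptor COUP-TFI, and had means of 17.3 (control) and 20.1 (mutant), a log2 fold change of 0.23; Nr2f1 stood at 58.2 and 60.0. Gm13111, which RefSeq names Prdm16os, starts 703 bases from the radial glial factor gene Prdm16 and stood at 8.28 and 9.24, with Prdm16 at 10.9 and 11.9. Sp3os, overlapping the first part of the zinc-finger gene Sp3, stood at 11.2 and 9.51, and Sp3 at 55.9 and 59.8.

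Zeb2os (chromosome 2, 45110707 to 45114087, plus strand) lies near the 5′ end of Zeb2, a zinc-finger factor needed by migrating neurons. Its means were 6.86 (control) and 7.27 (mutant). Zeb2 stood at 71.0 and 86.3 (unadjusted p = 0.0149, authors' deposited table), the only one of the 41 partner genes described below with an unadjusted p under 0.05. A separate row, Gm27761, is a 131-nt miscellaneous RNA annotated wholly within an exon of Zeb2os on the same strand. In the authors' deposited table it fell from 56.4 to 4.85 (adjusted p = 4.56e-40), while Zeb2os, which contains it, had an unadjusted p of 0.804. Gm27761 was singled out after its value was seen, and how reads were divided between these overlapping rows is not stated.

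Many of these RNAs share a start region with a neighbour. By GENCODE M21 starts, 21 of the 45 begin within 1000 bases of a listed protein-coding start on the other strand. Their median distance from it is 173 bases, with 13 facing away from it and 8 running into it. The direction depends on the annotation. At their RefSeq starts, 1600020E01Rik, Gm5577, 1110002L01Rik and Gm9828, all among the 8, face away from the neighbour's GENCODE start. Gm13375, among the 13, runs into its neighbour at its RefSeq start. Gt(ROSA)26Sor (chromosome 6, 113067428 to 113077333, minus strand), the lncRNA of the Rosa26 locus used for knock-in alleles, starts 32 bases from the chromatin gene Setd5. Its means were 23.6 (control) and 24.0 (mutant), and Setd5 stood at 51.0 and 56.4. Brip1os, beside the helicase gene Brip1, stood at 15.1 and 16.3. 2810001G20Rik, beside the heme A synthesis gene Cox10, stood at 11.6 and 12.3. Tmem147os stood at 11.8 and 11.1, with Tmem147 at 49.5 and 43.6.

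BC051226, beside the histone chaperone gene Daxx, had the lowest log2 fold change of these 21, with means of 12.4 (control) and 9.49 (mutant, -0.37); Daxx stood at 21.7 and 20.3. 3110056K07Rik stood at 10.7 and 10.5, and Arid4a at 14.0 and 13.6. Gm13375 stood at 9.45 and 10.8, with Arhgap21 at 77.6 and 83.2. Rab26os, 310 bases from the ubiquitin ligase gene Traf7, stood at 32.9 and 34.5. 6330418K02Rik starts 10 bases from BC037034 and stood at 6.14 and 6.48. Gm13563 (17.2 and 15.8), beside Snapc4, and Gm15612 (6.72 and 6.46), beside Abtb1, complete the group that faces away.

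Among the 8 that run into their neighbour's start in GENCODE M21, 1600020E01Rik had means of 26.3 (control) and 24.3 (mutant). Pcbp1, an RNA-binding protein gene, stood at 159 and 164. Gm5577 stood at 11.6 and 12.8, with the linker histone gene H1fx at 86.3 and 99.9. 4933431E20Rik stood at 11.6 and 12.1, beside Gstm5 at 61.6 and 71.1. 1110002L01Rik stood at 10.9 and 11.2, beside the Polycomb-related gene Asxl2 at 10.1 and 11.1. Gm2415, beside the phosphatase gene Ctdspl, stood at 8.69 and 7.78, and 2510046G10Rik, beside Sgf29, a subunit of the SAGA complex, at 6.97 and 6.44. Gm9828, beside Btf3, stood at 6.43 and 6.09. Gm45248, beside Dpf2, a subunit of BAF chromatin remodellers, stood at 4.55 and 5.68, the highest log2 fold change of the 8 (0.33). The control mean of Gm45248 is under the level floor.

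The signs of pairs with nearby starts matched in 16 of 21. Across these 21 pairs the rank correlation of the deposited log2 fold changes was 0.57, and across the 36 pairs in which a protein-coding gene is overlapped it was 0.09, with 22 of 36 of the same sign. Both are descriptions without a test: all values come from the same libraries, overlapping genes may share reads, some pairs are in both sets, and the difference between the correlations was not tested. Taking the overlapped gene, or the head-to-head gene where none is overlapped, gives 41 partners. Of these, 0 passed the authors' test, beside 0.780% of all genes. The log2 fold change of the lncRNA was further from 0 than that of its partner in 28 of 41 pairs. By the median of the ratios, the average signal of the lncRNA, in its unnamed unit, was 17.9% of its partner's. The median size of the log2 fold change was 0.25 for the 549 antisense rows under the floor and 0.14 for the 45. For all genes over the floor, at a median average of 20.8, it was 0.07. The part of level in the 28 of 41 was not tested.

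**Figure D3:**
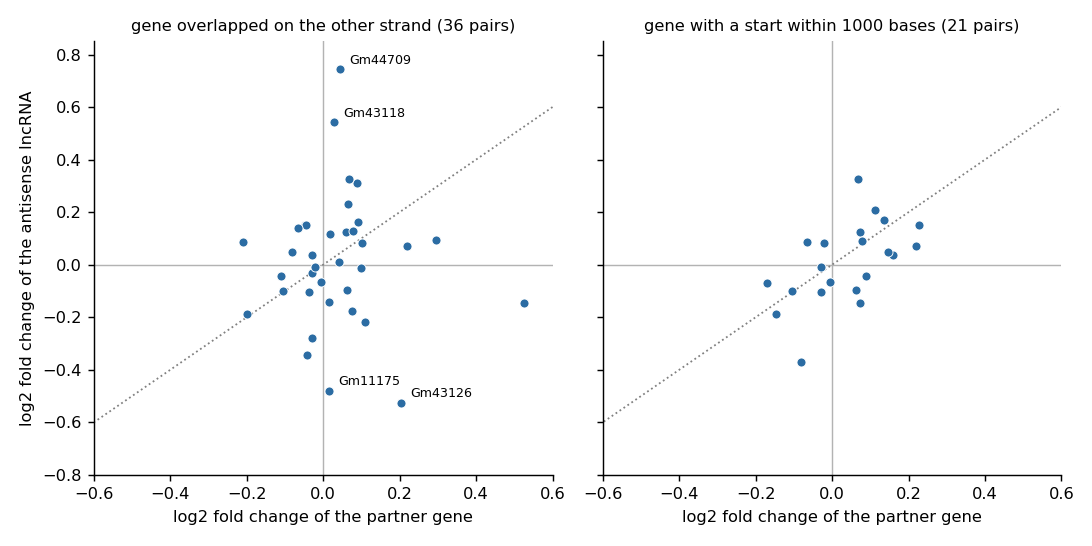
Deposited log2 fold change (Meis2-CKO over control) of each antisense lncRNA against that of its partner, for 36 genes overlapped on the other strand (left) and 21 genes with a start within 1000 bases (right); the dotted line marks equal change. Signs match in 16 of the 21 pairs on the right and in 22 of the 36 on the left, where Gm44709, Gm43118 and Gm11175 lie far from the line beside partners near 0.

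RefSeq promoter windows (250 bases before to 50 after a start, GRCm38.p6) were found for 18 of the 45. The ratio of observed to expected CpG was over 0.6 in 14 of these 18, against 80.8% of 7797 windows of genes over the same level floor and 36.5% of all 27025 windows. The 14 lncRNAs with a protein-coding start within 1000 bases of their GENCODE M21 start had a median of 0.90. The 4 without had 0.53, 1.22, 0.21 and 0.08 (A830082K12Rik, Rab10os, D030055H07Rik, 9130221H12Rik). The split was made at GENCODE starts, while the windows lie at RefSeq starts, which can differ. For 1600020E01Rik, among the 14, the window runs from 86527080 to 86527379 and the GENCODE start is 86526247. TGACAG, the core bound by Meis and other TALE factors, was in 0 of 18 windows on either strand, against 19.3% of all windows and 15.4% of those over the floor. TAATTA, the core of Dlx and other homeodomain factors, was in 0 of 18, against 5.32% of all windows and 2.14% of those over the floor. TATAAA was in 1 of 18 (5.56%, Rab26os), against 14.2% of all windows and 6.04% of those over the floor. CCAAT, added after sequences were seen, was in 8 of 18 (44.4%), against 38.0% and 40.1%. No match says only that these letters are not in this window.

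**Figure D4:**
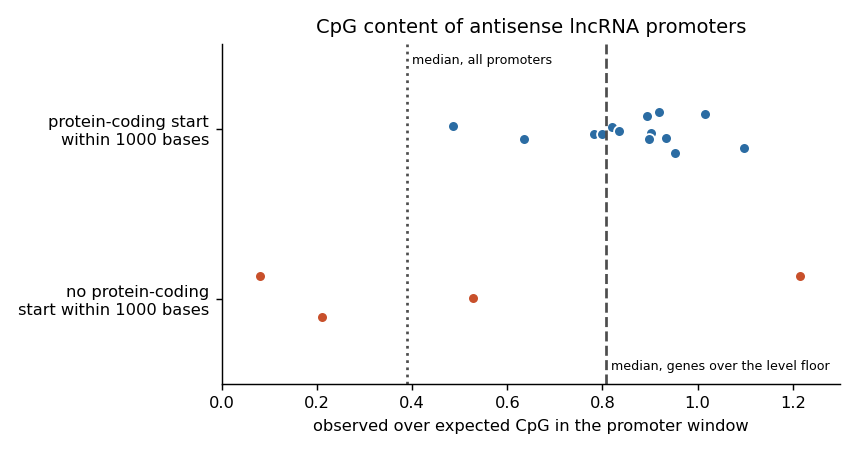
Observed over expected CpG ratio in the promoter windows of 18 antisense lncRNAs, split by whether a protein-coding gene starts within 1000 bases; points are single genes, spread vertically only to separate them, and lines mark the medians of all windows (dotted, 0.389) and of genes over the level floor (dashed, 0.807). Of the 14 with such a start 13 lie above 0.6, and of the 4 without 1 does. The split uses GENCODE M21 starts and the windows use RefSeq starts, which differ for some genes.

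The remaining antisense lncRNAs have no such neighbouring start, and most overlap a protein-coding gene. Gm16536, opposite the beta-secretase gene Bace1, stood at 24.5 in both genotypes. Rab10os, opposite the end of Rab10, stood at 14.1 and 13.7. D030055H07Rik, across the glycerate kinase gene Glyctk, stood at 7.91 and 9.76 (log2 fold change 0.31). Gm12264, within the last part of the myosin phosphatase regulator gene Mprip, stood at 8.04 and 6.25 (-0.34).

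B230334C09Rik, a single exon of 8927 nt at the end of Lrrc40, stood at 6.46 and 5.25. Gm14964, in the neurexin gene Nrxn2, stood at 9.42 and 8.24, with Nrxn2 at 54.1 and 56.5. Gm15122, in the RNA-binding protein gene Dazap1, stood at 8.17 and 9.01, and RP24-79I19, in the junctional adhesion gene Jam3, at 7.87 and 8.76. Gm15265, in the lipid kinase gene Pi4kb, stood at 7.26 and 7.82. 9130221H12Rik, in the glycogen synthase kinase gene Gsk3a, stood at 6.73 and 7.31, and Gm16172, in Tmem63b, at 5.11 and 5.60. The log2 fold change of B230334C09Rik was -0.28, and none of the 6 named after it exceeded 0.2 in size. Gm14286 (7.92 and 8.64) and BC023719 (6.76 and 6.87) had no listed protein-coding partner.

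At the threshold of choice, Gm45248 (average 5.11), Gm16172 (5.36) and Gm28498 (5.39) were just inside, and Gm43079 (4.80), Gm20687 (4.76) and Gm28192 (4.75) just outside. Gm28498 met the floor only through its control mean, and Gm45248 and Gm43118 only through their mutant means. For these rows the choice by level is not independent of the difference between genotypes. Of the 549 antisense rows under the floor, at a median average of 0.706, 0 were called by the authors' test and 1 had an unadjusted p under 0.05. Over all genes, most of them at higher levels, the shares were 0.780% and 2.17%. The single called row of the antisense type was Dlx1as, which the rule leaves out (means of 172 and 249, adjusted p = 0.0131 in the authors' deposited table).

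The enzymes that trim or act on such RNAs held no call, beside 0.780% of all 16913 genes. In lists this short a count of 0 is near that background. Of 18 names of exosome subunits and their nuclear adaptors, 16 were listed; their log2 fold changes had a median of 0.00, 8 of them positive and 8 negative; the 2 smallest p-values were those of Zfc3h1 (41.0 and 37.3) and C1d (51.6 and 47.9). The 10 enzymes of double-stranded RNA, editing and small RNA had a median of 0.04, with Adarb1 at 6.40 and 5.51 and Ago2 at 13.7 and 14.7. Polycomb repressive complex 2, which some lncRNAs bind, had a median of 0.09. Of its 10 genes 9 were above 0, beside 56.4% of all genes with an average of at least 5. Rbbp7 stood at 87.7 and 95.9 and Jarid2 at 24.7 and 28.1. At an unadjusted p under 0.05 the 3 lists held 0 genes, beside 2.17% of all genes.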

How the data were processed

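RNA-seq of dissected LGE was summarised by the submitters in 1 table. The submitters' processing notes name FastQC 0.11.5, HISAT2 2.1.0, StringTie 1.3.1, GRCm38.p2 and mm10, with no role or order. The mean columns hold the authors' expression signal per genotype, per the file headers, in an unnamed unit. The log2 fold change is the authors' deposited value; the log2 ratio of the 2 means differs from it by a median of -0.01, and the log2 ratio of the column sums is -0.01. Each adjusted p-value in the authors' deposited table equals a Benjamini-Hochberg adjustment over all 16913 genes. No source used here gives the depth or the strand of the counting.

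The table also holds 8 columns of single libraries whose names match no label; they were not used in any step. A limma fit on libraries, set in the design only for columns assignable by name, was therefore not run, and all calls are the authors' at an adjusted p of 0.05. Members and lists were chosen with earlier results of these data known. By the naming rule the text had to give called members, the 5 largest changes each way, the 10 most abundant, those named after a protein-coding gene, those next to the floor and their partners; the other members are named to account for all 45.

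Positions came from GENCODE M21 (GRCm38), matched by Ensembl ID for 43 of 45; M21 gives 3 of these (BC051226, 3110056K07Rik and Gm9828) a type other than antisense. A partner was a listed protein-coding gene on the other strand, with the longest overlap or else a start within 1000 bases; the limit to listed protein-coding genes was set after the table was seen, as were the CCAAT motif and the splits at 1000 nt and 90% of exon. Alternatives were level floors of 2 and 10, the Benjamini-Yekutieli adjustment, a fold change of 1.5, ratios of means with a pseudocount of 1 or none, centring, scaling, and subsets by place, length, size of change or overlap. The adjustment and interval steps were tested on simulated data. Tools were matplotlib 3.10.9, scipy 1.17.1, pandas 2.3.3, numpy 2.4.6 and Python 3.11.15.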

Additional observations from a re-analysis of the deposited data

How the results depend on the processing

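At averages of at least 2 the count of called antisense lncRNAs was 0 of 142. The other alternatives could only return 0, so they say nothing of stability: a floor of 10 (22 rows), the Benjamini-Yekutieli adjustment, a fold change of 1.5, and the 7 whose exons face no other exon. Leaving out X and Y removed none, and leaving out genes under 300 nt of exon removed only the 2 RNAs without an annotated length. The median log2 fold change, 0.03, was 0.0198 from the means with a pseudocount of 1, 0.0228 from the means without one and 0.0229 after centring. It was 0.00416 at a floor of 2, -0.00918 at a floor of 10 and 0.0904 for those 7. Log2 fold changes above and below 0 (24 and 21) numbered 72 and 70 at a floor of 2, 10 and 12 at a floor of 10, and 4 and 6 where genotype means differed by at least 1.2-fold; fewer or more genes enter by construction. Signs matched in 16 of 21 pairs with starts within 1000 bases, against 27 of 41 partners. No paired analysis was possible because the library columns carry no replicate number of the labels; leaving out single libraries was not run for the same reason.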
